A study of Mus musculus with 8 samples.

Results

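The genes described here encode 8 receptors or receptor chains through which haematopoietic stem cells (HSCs), the self-renewing cells of the bone marrow, read cytokines. They are Kit, Flt3, Csf2rb, Csf2ra, Il3ra, Csf3r, Epor and Il6st. They were taken by symbol, and all 8 of 8 were found among the 11854 named genes of the deposited table. The cells came from 4 Nupr1-/- mice and 4 wild type mice on a C57BL/6 background, with 1 library of polyadenylated RNA per mouse. Nupr1 encodes a small chromatin-binding protein induced by stress, and the comparison asks how its loss goes with the RNA of stem cells, which the series title links to quiescence and p53 signalling. No treatment, age or sex of the mice, no surface markers of the sort and no deleted part of Nupr1 are stated in the sources used here.

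Cytokine receptors pass on signals that keep stem cells alive, hold them at rest or turn them toward a blood lineage. Kit and Flt3 are receptor tyrosine kinases, which phosphorylate themselves once their ligand brings them together. The other members are type I cytokine receptors, which have no kinase of their own and use Janus kinases (JAKs) to switch on STAT transcription factors. Csf2rb is the beta chain shared by the receptors for GM-CSF, interleukin-3 and interleukin-5, and Csf2ra and Il3ra are the alpha chains that choose GM-CSF and interleukin-3. Csf3r binds G-CSF and Epor binds erythropoietin, each as a pair of like chains, and Il6st, also called gp130, is the signal chain shared by interleukin-6 and its relatives. In mouse marrow Kit is a marker of stem and early progenitor cells, Flt3 of multipotent and lymphoid-primed progenitors, Csf3r of the granulocyte lineage and Epor of erythroid progenitors.

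The libraries held 2296101 to 3959564 recovered reads for Nupr1-/- and 3340217 to 4769401 for wild type. Nupr1 itself was read in all 8 libraries, at 179, 173, 201 and 119 normalised reads in Nupr1-/- libraries 1 to 4 and 285, 134, 245 and 318 in wild type libraries 1 to 4. The groups overlapped (limma log2 difference -0.50, adjusted p = 0.433), so the targeted gene does not set the libraries apart and each group is named below as its libraries are labelled. All 13 listed HSC markers were measured, and Kit, on that list, is also one of the 8 receptor genes. Among them Gata2, a stem cell transcription factor, was at 1690 normalised reads, and 0 of the 13 passed the test. Of the listed mast cell, basophil and eosinophil markers 0 of 12 were among the genes analysed here, of the neutrophil markers 1 of 11 (Prtn3, 1560 normalised reads) and of the monocyte markers 3 of 9 (led by Lyz2 at 2110 and Cd68 at 26.2), with 0 calls. Of the megakaryocyte and platelet markers 4 of 10 passed as higher in Nupr1-/- libraries, where 1.68% of all tested genes did. Their summed levels, led by Vwf (845) and Itga2b (365), were 2177 to 2695 in Nupr1-/- libraries against 1146 to 1422 in wild type. Of the 10, 9 had a log2 difference above 0. Selp went the other way, at 72.0 ± 8.57 in Nupr1-/- and 255 ± 211 in wild type (SD, n = 4 each, limma adjusted p = 0.144). B cell markers (3 of 10 in the table, led by Cd79b and Cd74) summed to 329 to 595 in Nupr1-/- libraries and, in wild type libraries 1 to 4, to 395, 456, 1676 and 1970. T and NK cell markers (4 of 10, led by Lck at 177 and Nkg7 at 109), dendritic cell markers (3 of 9, led by Tcf4 at 260 and Bst2 at 67.8) and stromal markers (3 of 9, led by Pdgfrb at 38 and Col1a2 at 32.9) gave 0 calls. Of the endothelial markers 5 of 8 were measured, led by Egfl7 (350) and Tie1 (321), and Tie1 rose. The part of these cell types in the receptor values was not tested. Wild type library 2 lay far from the other libraries on the first principal component (25.6% of the variance). The GC content of transcripts also moved with the groups, since GC-rich genes lay relatively high in Nupr1-/- libraries (Spearman correlations across genes, which are not independent replicates, of 0.15 to 0.30) and relatively low in wild type libraries (-0.30 to -0.14).

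None of the 8 receptor genes passed the test between libraries labelled Nupr1-/- and wild type libraries. Normalised reads (reads divided by a size factor per library) were compared after log2(value + 1) with limma, and all 8 genes were among the 10989 tested. Fold values are on that scale, and for low genes they depend on the added value. At an adjusted p under 0.05 limma called 0 of the 8, where it called 3.8% of all tested genes. The edgeR, DESeq2 and limma-voom tests on recovered reads also called 0, although DESeq2 gave no adjusted p for Flt3 and Il3ra. An unadjusted limma p under 0.05 was reached by 1 member, Epor, or 12.5% of them, against 19.7% of all genes. In 0 of the 8 did the 4 values of each group keep apart, against 11.7% of all genes. The log2 differences, Nupr1-/- minus wild type, ran from -0.37 for Flt3 to 1.83 for Epor, with a median of 0.10 over the 8 genes and 0.025 over all genes, and 4 of the 8 lay above 0. A log2 difference of at least 1 either way was seen for 1 member, Epor, and for 19.9% of all genes. Without wild type library 2 the call changed for Epor alone, as given with its values. These are bulk libraries, in which fewer cells of a type and less RNA per cell cannot be told apart.

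**Figure D1:**
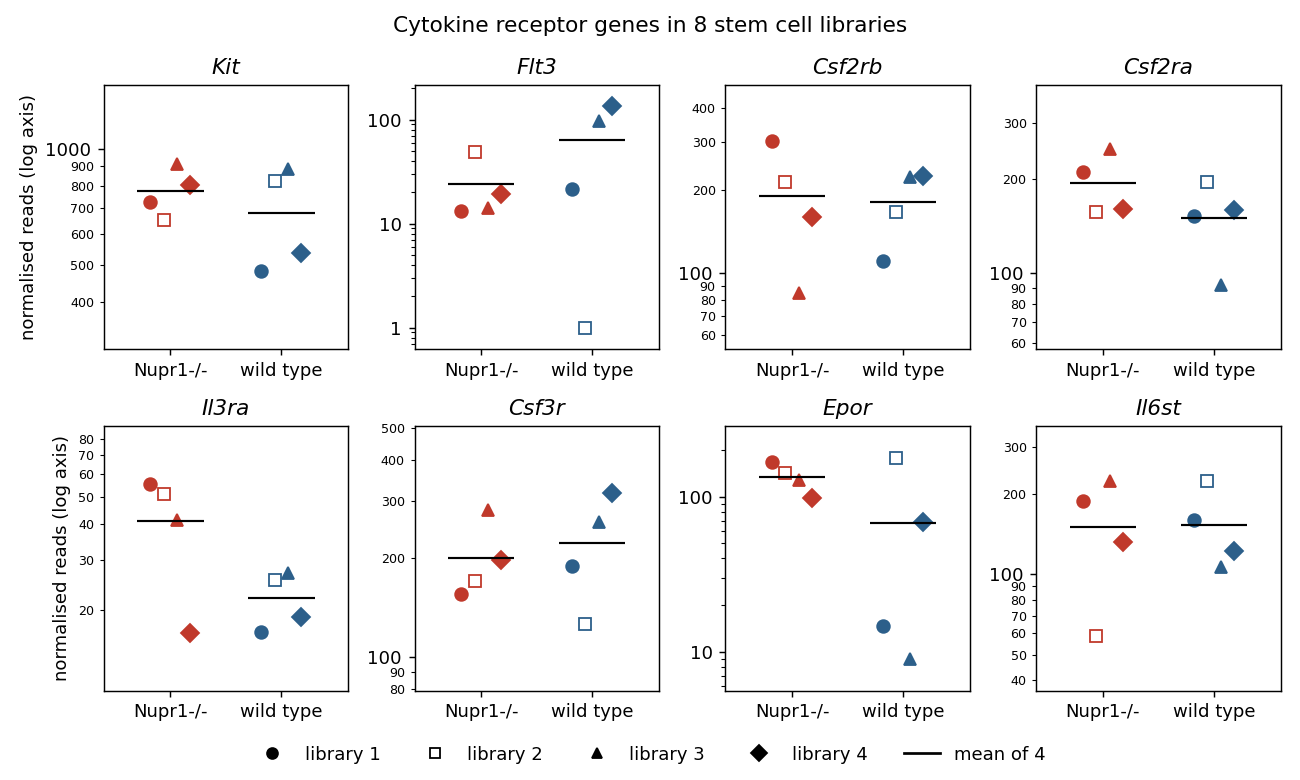
Normalised reads of each receptor gene (vertical log axis, own range per panel) in the 4 Nupr1-/- and the 4 wild type libraries; symbols mark the library number, open squares library 2, and lines the mean of 4. The groups overlap in every panel, and in the Epor and Flt3 panels the wild type values spread over far more of the axis than the Nupr1-/- values.

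Kit, the receptor for stem cell factor, was the most abundant of the 8 per exon length and one of the steadiest. In mm10 the gene (ENSMUSG00000005672.12) spans bases 75574916 to 75656722 of chromosome 5, plus strand. It had 728, 653, 914 and 804 normalised reads in Nupr1-/- libraries 1 to 4, and 483, 826, 885 and 535 in wild type libraries 1 to 4. All Nupr1-/- values lay above the lower pair of wild type values, libraries 1 and 4, while wild type libraries 2 and 3 lay within the Nupr1-/- range. The means were 775 ± 111 in Nupr1-/- and 682 ± 203 in wild type (SD, n = 4 each). The log2 difference of 0.22 ± 0.23 (SE) had a limma adjusted p of 0.629 and a two-sided exact permutation p of 0.371, where 4 against 4 libraries allow no p below 0.0286. Its 95% interval in fold terms, 0.836 to 1.63, leaves out a doubling or a halving of Kit RNA. Kit made up 40.0% to 50.6% of the summed normalised reads of the 8 genes in Nupr1-/- libraries and 33.8% to 52.1% in wild type libraries.

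Flt3, the receptor kinase of multipotent progenitors, was the least abundant of the 8 per exon length over all libraries. It (ENSMUSG00000042817.15) spans bases 147330741 to 147400489 of chromosome 5, minus strand. It had 13.1, 48.6, 14.1 and 19.4 normalised reads in Nupr1-/- libraries 1 to 4, against 21.6, 0.985, 97.7 and 134.5 in wild type libraries 1 to 4. Wild type libraries 3 and 4 were above every other library and wild type library 2 was below every other, so the wild type values enclosed all 4 Nupr1-/- values. Few reads lay behind these values, from 9 to 39 in Nupr1-/- libraries and from 1 to 178 in wild type libraries. The single read of wild type library 2 has an exact Poisson 95% interval of 0.0253 to 5.57 reads, which, like every such interval here, covers counting error only.

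The mean level of Flt3 was 23.8 ± 16.8 in Nupr1-/- and 63.7 ± 62.9 in wild type (SD, n = 4 each). Its log2 difference was -0.37 ± 1.13 (SE, limma adjusted p = 0.891), and its 95% interval, -2.73 to 1.99, spans a large change either way. On recovered reads of all 8 libraries the log2 difference was -1.42 in edgeR (adjusted p = 0.488) and -1.115 in limma-voom (adjusted p = 0.557). The direction rested on single libraries, since the log2 difference was -1.64 without wild type library 2 (adjusted p = 0.212), 0.24 without wild type library 3 and 0.39 without wild type library 4. The residual SD of Flt3, 2.05 on the log2 scale, was at the 95.4th percentile of all tested genes.

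Other genes of multipotent progenitors were high in the same wild type libraries. Cd48, a surface protein that HSC sorts usually gate out, had 0, 4.99, 3.53 and 12.96 normalised reads in Nupr1-/- libraries 1 to 4, against 0, 0, 113.7 and 105.1 in wild type libraries 1 to 4. Cd53, a tetraspanin of leukocytes, had 0, 18.7, 67.2 and 5.56 in Nupr1-/- libraries, against 47.4, 63.1, 285 and 248 in wild type libraries. Wild type libraries 3 and 4 were thus the highest of the 8 for both of these genes, as they were for Flt3. Summed over the 5 of 6 listed progenitor markers in the table, Flt3 included, the level was 242 to 818 in Nupr1-/- libraries and 134 to 1289 in wild type libraries. Of the 4 of these markers that were tested, 0 passed. Mki67, the proliferation marker on that list, did not follow them, at 222, 278, 601 and 706 in Nupr1-/- libraries and 38.3, 419, 125 and 265 in wild type libraries. Cd74, a class II chaperone of B and antigen-presenting cells, was 75.9 to 381 in Nupr1-/- libraries and, in wild type libraries 1 to 4, 155, 71.9, 938 and 1076. The part of these markers in the Flt3 values was not tested.

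Csf2rb, the shared beta chain, did not differ beyond the spread between mice. It (ENSMUSG00000071713.6) spans bases 78325752 to 78353847 of chromosome 15, plus strand. It had 302, 214, 84.8 and 160 normalised reads in Nupr1-/- libraries 1 to 4, against 111, 167, 223 and 225 in wild type libraries 1 to 4. Nupr1-/- library 1 was the highest of the 8 and Nupr1-/- library 3 the lowest, so the Nupr1-/- values enclosed all wild type values. The means were 190 ± 91.4 in Nupr1-/- and 182 ± 54.2 in wild type (SD, n = 4 each), with a log2 difference of -0.02 ± 0.39 (SE, limma adjusted p = 0.984, exact permutation p = 0.886). In fold terms the 95% interval ran from 0.556 to 1.75. Mice carry a neighbouring copy of this gene, Csf2rb2, which encodes a beta chain specific for interleukin-3, and reads can be shared between near-identical stretches, so the split between them is uncertain. Csf2rb2 averaged 93.97 ± 24.4 in Nupr1-/- and 106 ± 78.5 in wild type (SD, n = 4 each, limma adjusted p = 0.955). The sum of both genes was 418.5, 323, 147 and 249 in Nupr1-/- libraries, against 185, 202, 441 and 324 in wild type libraries, and these ranges overlapped too. Csf2rb made up 57.8% to 72.1% of that sum in Nupr1-/- libraries and 50.7% to 82.4% in wild type libraries.

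Csf2ra, the GM-CSF alpha chain, was among the steadier members. It (ENSMUSG00000059326.7) spans bases 61223957 to 61228429 of chromosome 19, minus strand. It had 210, 157, 248 and 160 normalised reads in Nupr1-/- libraries 1 to 4, against 152, 195, 91.7 and 159 in wild type libraries 1 to 4. Nupr1-/- libraries 1 and 3 were above all wild type libraries, wild type library 3 was the lowest of the 8, and the other values overlapped. The means were 194 ± 43.6 in Nupr1-/- and 149.5 ± 42.9 in wild type (SD, n = 4 each), with a log2 difference of 0.40 ± 0.34 (SE, limma adjusted p = 0.553, exact permutation p = 0.171). With the trend in GC content and transcript length removed from each library the difference was -0.07. The log2 ratio of Csf2rb to Csf2ra, a description without a test, was 0.52, 0.45, -1.54 and 0 in Nupr1-/- libraries and -0.45, -0.23, 1.27 and 0.50 in wild type libraries. The ranges of this ratio overlapped between the groups.

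Il3ra, the interleukin-3 alpha chain, was low in every library. It (ENSMUSG00000068758.8) spans bases 14346275 to 14356011 of chromosome 14, plus strand, and 46 bases of its exons (1.55%) overlap an antisense transcript that the unstranded library kit cannot tell apart. It had 55.4, 51.1, 41.5 and 16.7 normalised reads in Nupr1-/- libraries 1 to 4, against 16.7, 25.6, 26.9 and 18.9 in wild type libraries 1 to 4. In 3 of the 4 Nupr1-/- libraries it was above every wild type library, and Nupr1-/- library 4 was the lowest of the 8. These values rest on 18 to 47 reads per Nupr1-/- library and 24 to 27 per wild type library. The spread among wild type mice (coefficient of variation 22.7%) was close to the 20.0% that counting alone gives at this depth, while among Nupr1-/- mice it was 42.1% against 17.0% from counting. The means were 41.2 ± 17.3 in Nupr1-/- and 22.0 ± 4.997 in wild type (SD, n = 4 each). The fitted log2 difference was 0.77 ± 0.75 (SE, limma adjusted p = 0.604, exact permutation p = 0.143), with a 95% interval of 0.575-fold to 5.05-fold. With the GC and length trend removed it was 0.20.

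Csf3r, the G-CSF receptor of the granulocyte lineage, overlapped fully between the groups. It (ENSMUSG00000028859.14) spans bases 126024550 to 126044440 of chromosome 4, plus strand. It had 156, 171, 281 and 197 normalised reads in Nupr1-/- libraries 1 to 4, against 190, 126, 259 and 317 in wild type libraries 1 to 4. The wild type values enclosed the Nupr1-/- values, with wild type library 4 the highest and wild type library 2 the lowest of the 8. The means were 201 ± 55.8 in Nupr1-/- and 223 ± 83.1 in wild type (SD, n = 4 each), a log2 difference of -0.10 ± 0.34 (SE, limma adjusted p = 0.898, exact permutation p = 0.771). Its 95% interval was 0.567-fold to 1.53-fold. Prtn3, a granule protease and the 1 measured neutrophil marker, was at 847 to 1445 normalised reads in Nupr1-/- libraries and 983 to 2908 in wild type libraries. Prtn3 was highest in wild type libraries 4 and 3, which for Csf3r were the highest and the third highest of the 8.

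Epor, the erythropoietin receptor, was the member with the widest log2 difference between the groups in limma. In edgeR on recovered reads the log2 difference of Flt3 was wider, at -1.42 against 0.999 for Epor. Epor was also the only member whose call changed when a single library was left out. It (ENSMUSG00000006235.6) spans bases 21958897 to 21963506 of chromosome 9, minus strand, with no other annotated exon over its own. It had 168, 143, 129 and 98.2 normalised reads in Nupr1-/- libraries 1 to 4, against 14.6, 178, 8.97 and 68.8 in wild type libraries 1 to 4. All 4 Nupr1-/- libraries were above wild type libraries 1, 3 and 4 and below wild type library 2. The recovered reads numbered 115, 115, 146 and 106 in Nupr1-/- libraries and 21, 181, 9 and 91 in wild type libraries, so counting error is small beside the gap between wild type libraries. The coefficient of variation was 21.6% among Nupr1-/- mice and 116% among wild type mice, where counting alone gives 9.31% and 11.6%.

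Epor averaged 135 ± 29.1 in Nupr1-/- and 67.7 ± 78.6 in wild type (SD, n = 4 each). Its log2 difference was 1.83 ± 0.72 (SE), or 3.56-fold with a 95% interval of 1.25 to 10.2, and missed the threshold (limma adjusted p = 0.166, exact permutation p = 0.143). On recovered reads edgeR gave a log2 difference of 0.999 (adjusted p = 0.483), DESeq2 0.994 (adjusted p = 0.402) and limma-voom 2.23 (adjusted p = 0.0667). Without wild type library 2 Epor passed, with a log2 difference of 2.59 ± 0.63 (SE) and a limma adjusted p of 0.0145. In that fit 8.15% of all 10838 genes tested were called. With the GC and length trend removed as well, an alternative chosen after the values were seen, the difference was 2.12 and the adjusted p 0.0723. With all 8 libraries and the trend removed it was 1.35 with an adjusted p of 0.445. The size of the difference also rested on the low wild type libraries 1 and 3. The log2 difference was 1.413 without wild type library 1 (limma adjusted p = 0.346). It was 1.198 without wild type library 3 (limma adjusted p = 0.345) and 2.133 without wild type library 4 (limma adjusted p = 0.162). Over its alternatives the adjusted p of Epor ran from 0.0145 to 0.483 and its log2 difference stayed above 0.

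The window around the start of Epor is shown because the gene is a known target of GATA factors, and because Gata1 and Klf1, erythroid transcription factors, were among the genes measured beside it. Flt3, the other member with widely spread wild type values, is shown for comparison. Both windows are RefSeq promoters of build GRCm38.p6, from 250 bases before to 50 after the annotated start, read 5′ to 3′ on the gene's strand. Capitals mark matches on either strand to the letters AGATAA, which erythroid GATA factors bind, and to CCNCNCCC, a box bound by KLF and SP factors, whose matches overlap where the letters run on. The Epor window is chr9:21963527-21963826, minus strand, and the Flt3 window chr5:147400440-147400739, minus strand.
Epor: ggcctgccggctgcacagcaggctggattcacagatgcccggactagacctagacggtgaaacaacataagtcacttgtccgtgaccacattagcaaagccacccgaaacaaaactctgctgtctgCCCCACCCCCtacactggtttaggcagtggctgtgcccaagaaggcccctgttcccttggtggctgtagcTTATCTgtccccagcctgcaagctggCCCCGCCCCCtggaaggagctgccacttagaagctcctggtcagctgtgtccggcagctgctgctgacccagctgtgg
Flt3: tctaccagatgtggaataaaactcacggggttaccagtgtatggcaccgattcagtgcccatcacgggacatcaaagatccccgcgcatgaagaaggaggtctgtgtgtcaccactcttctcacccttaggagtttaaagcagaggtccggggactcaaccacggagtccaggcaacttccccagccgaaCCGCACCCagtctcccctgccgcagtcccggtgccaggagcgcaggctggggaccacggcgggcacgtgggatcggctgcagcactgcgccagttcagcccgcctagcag

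The Epor window lies wholly before the GENCODE gene, which on this minus strand begins at base 21963506, so its positions count from the RefSeq start alone. It holds 1 GATA match, printed as TTATCT because AGATAA is on the opposite strand, beginning at position -54. Its 4 KLF matches begin at positions -124, -122, -28 and -26 and overlap in pairs. The Flt3 window holds 1 KLF match and no GATA match. Of 32851 RefSeq windows of the same length 11.2% hold the GATA letters and 49.5% the KLF letters. Among the 7 members with a window in that table, Epor was the only one with the GATA letters, while the KLF letters were found in all 7, with 8 matches for Il3ra against 4 for Epor. The ETS letters CAGGAAGT (in 3.33% of windows) were found for Il3ra alone, the RUNX letters TGTGGT (16.8%) for Epor alone, and the STAT letters TTCNNNGAA (8.3%) for none. Such matches describe letters in these windows and do not show binding.

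Gata1, the master erythroid and megakaryocyte factor, had 184, 57.4, 152 and 244 normalised reads in Nupr1-/- libraries 1 to 4, against 3.48, 203, 32.9 and 0 in wild type libraries 1 to 4. As for Epor, wild type library 2 lay with the Nupr1-/- libraries and the other wild type libraries below all of them (limma adjusted p = 0.162). Klf1, an activator of globin genes, did not follow that pattern. It had 45.2, 24.9, 85.7 and 69.5 in Nupr1-/- libraries, against 1.39, 2.96, 2.99 and 0 in wild type libraries, library 2 included. Klf1 was therefore higher in all 4 Nupr1-/- libraries (limma adjusted p = 0.0341), on at most 3 reads in each wild type library, so that its fold depends on the added value. Of the 11 listed erythroid markers 6 were in the table and 4 were tested, of which 1, Klf1, rose and 0 fell. Their summed level was 352 to 559 in Nupr1-/- libraries and 229 to 572 in wild type, highest in wild type library 2. Hbb-bt, an adult globin, was 99.1 to 158 in Nupr1-/- libraries and 116 to 161 in wild type libraries. Tfrc, the transferrin receptor and the most abundant gene of that list, was 158, 112, 145 and 71.3 in Nupr1-/- libraries, against 98.9, 206, 222 and 363 in wild type libraries (log2 difference -0.79, limma adjusted p = 0.296), and was highest in wild type library 4. Of the other listed markers Alas2, Epb42 and Car1 were not among the genes analysed here. The part of these genes in the Epor values was not tested.

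**Figure D2:**
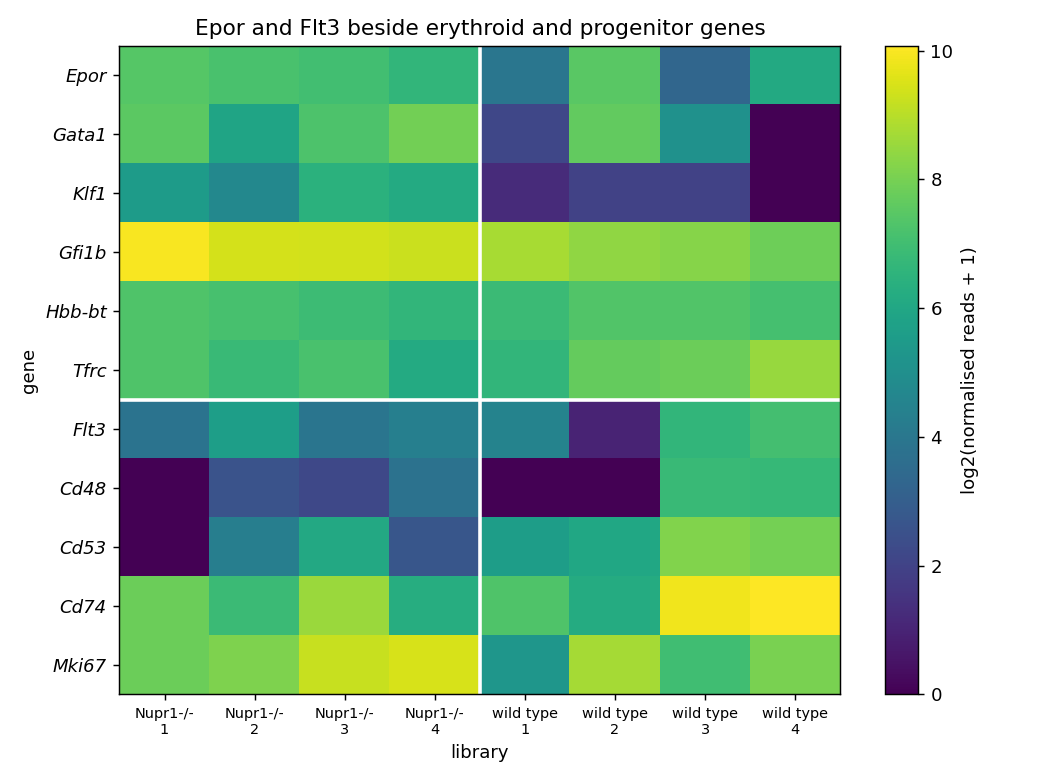
Level of Epor with erythroid genes (upper block) and of Flt3 with multipotent progenitor genes and Cd74 (lower block) in the 4 Nupr1-/- libraries, left, and the 4 wild type libraries, right, as log2(normalised reads + 1) in colour. Epor and Gata1 lie below all Nupr1-/- libraries in wild type libraries 1, 3 and 4 but not in library 2. In wild type library 4 Epor (68.8 normalised reads) is near its lowest Nupr1-/- value (98.2), while Gata1 is 0. Flt3, Cd48, Cd53 and Cd74 are brightest in wild type libraries 3 and 4.

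Il6st, the gp130 signal chain, had nearly equal means in the groups. It (ENSMUSG00000021756.12) spans bases 112464070 to 112510086 of chromosome 13, plus strand. It had 188, 58.6, 224 and 132 normalised reads in Nupr1-/- libraries 1 to 4, against 160, 224, 107 and 122 in wild type libraries 1 to 4. Nupr1-/- library 2 was the lowest of the 8, and Nupr1-/- library 3 and wild type library 2 were together the highest. The means were 151 ± 72.2 in Nupr1-/- and 153 ± 52.0 in wild type (SD, n = 4 each), a log2 difference of -0.13 ± 0.43 (SE, limma adjusted p = 0.903, exact permutation p = 0.886). The 95% interval ran from 0.492-fold to 1.71-fold.

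**Figure D3:**
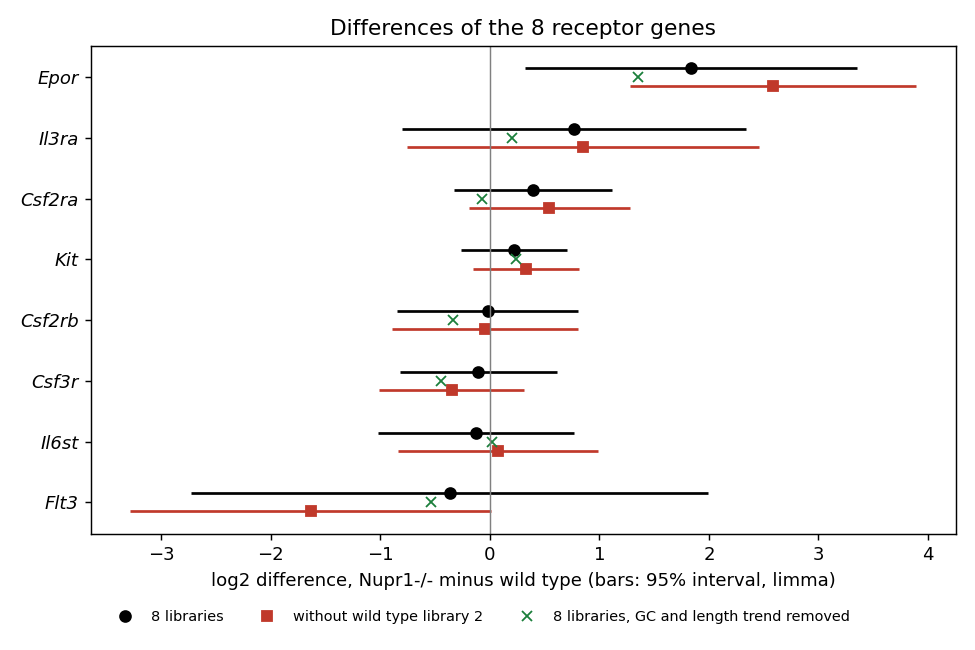
Log2 difference, Nupr1-/- minus wild type, of each receptor gene with its 95% interval from limma, for all 8 libraries (black circles) and without wild type library 2 (red squares), and the value with the GC and length trend removed (green crosses). Intervals of all genes but Epor include 0, Flt3 without wild type library 2 reaching 0.007 at its upper end, and the Epor values stay to the right of 0.

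The order of the levels can be compared between genes only per length, here as normalised reads per kilobase of annotated exon. In Nupr1-/- libraries Kit stood at 86.9 ± 12.5, Epor at 67.7 ± 14.6, Csf2ra at 67.5 ± 15.2 and Csf3r at 55.8 ± 15.5 (SD, n = 4). Csf2rb followed at 26.2 ± 12.6, then Il3ra at 13.9 ± 5.84, Il6st at 13.6 ± 6.51 and Flt3 at 3.86 ± 2.71. In wild type libraries Kit stood at 76.6 ± 22.8, Csf3r at 61.8 ± 23.0, Csf2ra at 52.1 ± 14.9 and Epor at 34.0 ± 39.5. There Csf2rb was at 25 ± 7.44, Il6st at 13.8 ± 4.69, Flt3 at 10.3 ± 10.2 and Il3ra at 7.43 ± 1.68. In Nupr1-/- libraries the neighbours Csf3r and Csf2rb, and Il6st and Flt3, lay apart by more than their summed SDs, and the other neighbours did not. In wild type libraries all neighbours lay within theirs. Epor was the highest of the 8 per kilobase in Nupr1-/- library 1, second in Nupr1-/- library 2 and in wild type library 2, and the lowest in wild type library 3. Among 37 of 51 listed cytokine receptor genes found in the table Kit was sixth at 81.7 per kilobase over the 8 libraries, and Flt3 was at 7.09. By level per kilobase Kit lay at the 79.7th percentile of all genes with a length, Csf2ra at the 72.2nd, Epor at the 68.1st, Csf2rb at the 49th and Flt3 at the 18.3rd.

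**Figure D4:**
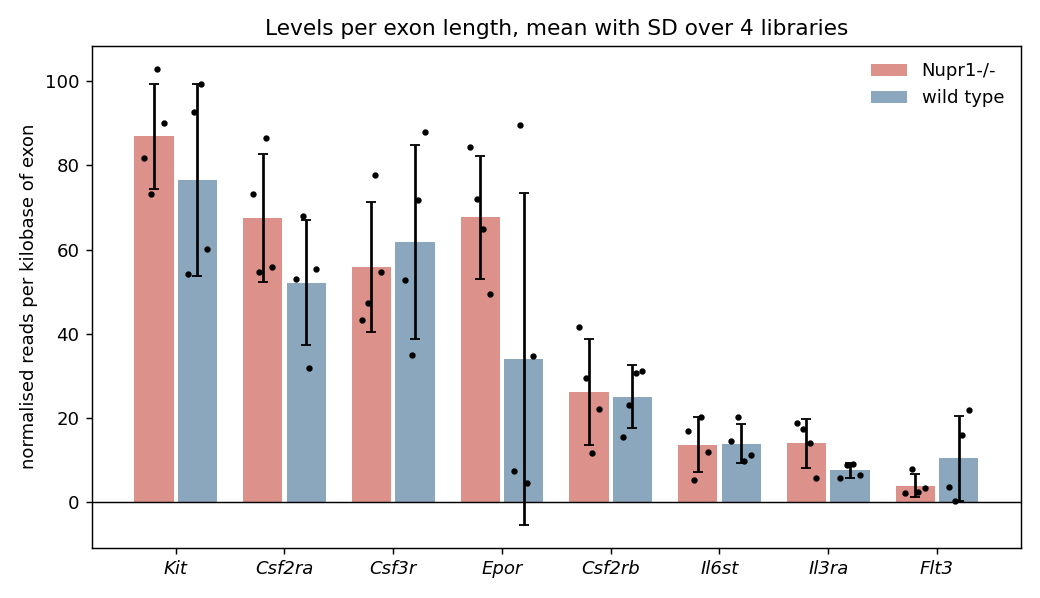
Normalised reads per kilobase of exon of the 8 receptor genes in Nupr1-/- (red) and wild type (blue) libraries; bars are means, error bars SD over 4 libraries and points single libraries. Kit is highest in both groups, and the SD bar of Epor in wild type libraries, 39.5 around a mean of 34.0, is longer than its mean.

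The 3 most GC-rich members had the highest differences, but from gene to gene the differences did not rise steadily with GC content. Il3ra, the most GC-rich, was at a log2 difference of 0.77 and Epor at 1.83. Among the others Kit (48.5%) was at 0.22, Flt3 (51.2%) at -0.37 and Csf3r (54.2%) at -0.10. The GC trend also ran with the groups, and its part in these differences was not tested. The members with the most GC-rich transcripts, Il3ra (60.7%), Epor (59.6%) and Csf2ra (57.8%), were also those with the highest log2 differences, and all 3 lie above the upper quartile of the tested genes (54.3%). Over all genes the median log2 difference was -0.45 for genes below the lower quartile of GC content (44.7%) and 0.44 for those above the upper quartile. With the GC and length trend removed from each library the log2 difference was 0.20 for Il3ra, 1.35 for Epor and -0.07 for Csf2ra. For the others it was 0.24 for Kit, 0.02 for Il6st, -0.34 for Csf2rb, -0.45 for Csf3r and -0.54 for Flt3. Csf2rb, Csf3r and Flt3 thus moved down too, from -0.02, -0.10 and -0.37, while Kit and Il6st moved up. The lowest limma adjusted p among the 8 with the trend removed was 0.445, for Epor.

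**Figure D5:**
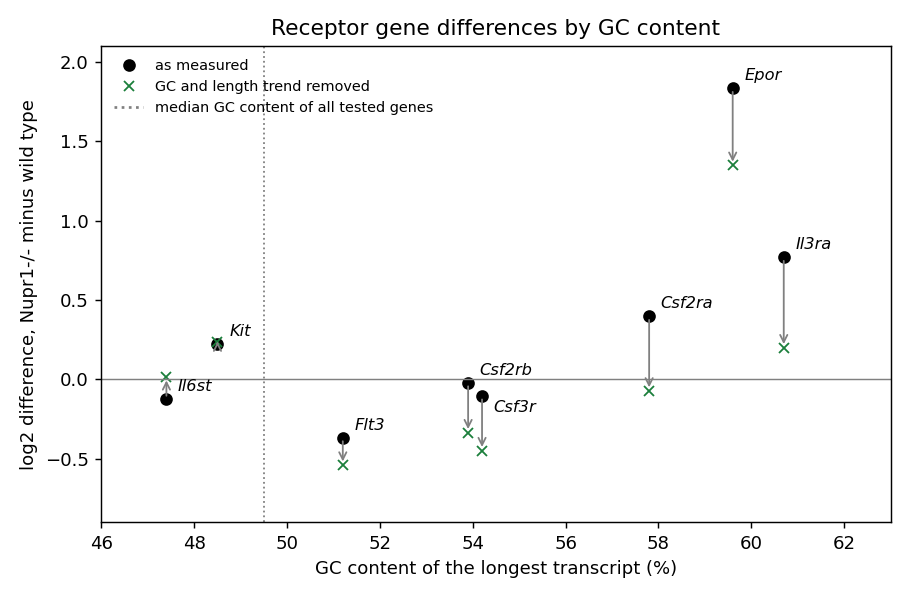
Log2 difference, Nupr1-/- minus wild type, of each receptor gene against the GC content of its longest transcript, as measured (black circles) and with the GC and length trend removed (green crosses, joined by arrows); the dotted line is the median GC content of all tested genes, 49.5%. The right-hand 3 genes, Csf2ra, Epor and Il3ra, move down most.

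With all 8 libraries, receptor lists that reach beyond the 8 members gave no call either. Several of these lists hold members again, so their counts and medians partly repeat the values above. Kit and Flt3 are in the class III list, whose median is the Flt3 value, and Csf2rb, Csf2ra and Il3ra in the common beta chain list. Il6st is in the gp130 list, and Epor and Csf3r are in the homodimeric list. Of the class III receptor tyrosine kinases 3 of 5 were tested and 0 passed, and of the common beta chain family 4 of 5 were tested and 0 passed (median log2 differences -0.37 and 0.24). Pdgfrb, a PDGF receptor of stromal cells, was 30.9 ± 29.5 in Nupr1-/- and 45.1 ± 34.6 in wild type (SD, n = 4 each, limma adjusted p = 0.745). In the gp130 family 4 of 7 were tested and 0 passed (median -0.08). Il11ra1, the interleukin-11 alpha chain, was 769 ± 200 in Nupr1-/- and 526 ± 154 in wild type (SD, n = 4 each, limma adjusted p = 0.221). Osmr, the oncostatin M receptor, was 4.94 ± 7.70 in Nupr1-/- and 33.1 ± 31.1 in wild type (adjusted p = 0.197 by limma). Of the homodimeric receptors 4 of 6 were tested and 0 passed (median -0.16). Ghr, the growth hormone receptor, was 33.7 ± 6.79 in Nupr1-/- and 77.8 ± 32.9 in wild type (SD, n = 4 each), with no overlap between the groups (limma adjusted p = 0.296). Of 28 further cytokine receptors 20 were tested and 0 passed (median -0.15), while without wild type library 2 the count was 0 higher and 1 lower (Ifnar1, an interferon receptor chain). Ifngr1, the ligand-binding chain of the interferon gamma receptor, was 93.7 ± 46.8 in Nupr1-/- and 193 ± 21.2 in wild type (SD, n = 4 each, limma adjusted p = 0.115). Il12rb2, an interleukin-12 receptor chain, was 58.3, 47.4, 43.3 and 50.9 in Nupr1-/- libraries, against 0, 0, 40.9 and 0 in wild type libraries (limma adjusted p = 0.0694), and 40.0% of its exon length overlaps Serbp1, from which its reads cannot be told apart.

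Of 16 ligand genes 4 were tested and 0 passed (median log2 difference -0.02). Flt3l, the ligand of Flt3, was 170 ± 46.7 in Nupr1-/- and 145 ± 14.0 in wild type (SD, n = 4 each, limma adjusted p = 0.813). Ctf1, a ligand of the gp130 family, was 39.1 ± 16.9 in Nupr1-/- and 24.3 ± 19.2 in wild type (limma adjusted p = 0.527). Kitl, Csf2, Csf3, Il3, Il6, Epo and Thpo were not among the genes analysed here.

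Downstream of the receptors, 11 JAK and STAT genes were tested and 0 passed (median log2 difference 0.05). Jak3, the kinase of the common gamma chain, was 475 ± 65.9 in Nupr1-/- and 232 ± 130 in wild type, with no overlap between the groups (limma adjusted p = 0.156). Stat6 was 497 ± 128 in Nupr1-/- and 353 ± 122 in wild type (SD, n = 4 each, limma adjusted p = 0.308). Added after their values were seen, Jak2, the kinase that Epor and Csf2rb use, was 236 ± 36.5 in Nupr1-/- and 227 ± 23.9 in wild type, and Stat5b 387.4 ± 37.1 and 387.7 ± 82.4. Stat5a, likewise added, was 410 ± 107 in Nupr1-/- and 311 ± 111 in wild type (SD, n = 4 each, limma adjusted p = 0.453).

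Over all lists described here, members included, 11 of the 156 distinct tested genes passed (7.05%), 4 higher and 7 lower in Nupr1-/- libraries. Over all genes limma called 1.68% higher and 2.12% lower. Of 29 tested adaptors and RAS or PI3K genes 1 rose, 1 fell and 27 did not pass (median log2 difference 0.20). Pik3cd, the catalytic PI3K delta subunit of blood cells, rose to 769.5 ± 19.7 in Nupr1-/-, against 438 ± 87.7 in wild type (limma adjusted p = 0.037). Of 26 negative regulators 0 rose, 1 fell and 25 did not pass (median -0.29), and without wild type library 2 the counts were 1 higher (Ptpn6) and 2 lower. Ptprc, the phosphatase CD45, fell to 443.5 ± 86.4 in Nupr1-/-, against 934 ± 141 in wild type (limma adjusted p = 0.0145). Ptpn6, the phosphatase SHP-1, was 1336 ± 280 in Nupr1-/- and 780 ± 245 in wild type (limma adjusted p = 0.0525).

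Among 25 tested targets of STAT and ERK signals 3 fell, 0 rose and 22 missed the threshold (median log2 difference -0.02). Pim1, a survival kinase induced by STAT5, fell to 144 ± 36.4 in Nupr1-/-, against 839 ± 526 in wild type (SD, n = 4 each, limma adjusted p = 0.00514). Dusp5, an ERK phosphatase, fell to 136 ± 78.7 in Nupr1-/-, against 489 ± 225 in wild type (limma adjusted p = 0.0206). Ccnd1, cyclin D1, fell to 57.8 ± 25.9 in Nupr1-/-, against 202 ± 24.7 in wild type (limma adjusted p = 0.0234). Exons of Pim1, Dusp5 and Ccnd1 overlap those of another gene by 14.5%, 22.1% and 23.4% of their length, and reads there cannot be assigned. Of 13 genes of receptor trafficking and surface control 1 rose, 2 fell and 10 did not pass (median -0.41). Eps15, an adaptor of clathrin-mediated uptake, fell to 131 ± 56.2 in Nupr1-/-, against 401.5 ± 61.4 in wild type (limma adjusted p = 0.0159). Adam10, a protease that sheds surface proteins, fell to 609 ± 79.2 in Nupr1-/-, against 1099 ± 147 in wild type (limma adjusted p = 0.0235). Hgs, which sorts endocytosed receptors for degradation, rose to 321 ± 85.0 in Nupr1-/-, against 144 ± 4.03 in wild type (limma adjusted p = 0.044), and the annotation holds a pair of overlapping genes of that name.

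Of 18 transcription factors known from receptor gene control 2 rose, 0 fell and 16 did not pass (median log2 difference 0.08), and without wild type library 2 the counts were 5 higher, Gata1 among them, and 1 lower. The 2 were Klf1, given above, and Gfi1b, a transcriptional repressor that acts in the erythroid and megakaryocyte lineages, at 742 ± 176 in Nupr1-/- and 325 ± 84.5 in wild type (SD, n = 4 each, limma adjusted p = 0.0182). When the 8 libraries were left out one at a time Pim1 passed all 8 times, Ptprc 7, Eps15 and Gfi1b 6, Dusp5 4, Ccnd1 and Adam10 3, and Pik3cd, Hgs and Klf1 once. With the GC and length trend removed Pim1 (adjusted p = 0.000904) and Dusp5 (0.0137) still passed and the other 9 did not. Among those Ccnd1 had a log2 difference of -2.05 with the trend removed, against -1.90 with it (adjusted p = 0.0524), while the difference shrank to -0.47 for Ptprc, 0.37 for Pik3cd and -0.40 for Adam10.

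The spread between mice differed among the 8 genes. On the log2 scale the residual SD was 0.34 for Kit, 0.40 for Csf2ra, 0.49 for Csf3r, 0.59 for Il3ra, 0.64 for Csf2rb, 0.69 for Il6st, 1.38 for Epor and 2.05 for Flt3, where the median gene had 0.58. Epor lay at the 86.4th and Kit at the 18.9th percentile of all tested genes. Set against the value that counting alone gives, the coefficient of variation in Nupr1-/- mice was 3.78 times as large for Kit, 3.20 for Flt3, 2.96 for Csf2ra, 3.78 for Csf3r and 2.32 for Epor, against 8.20, 8.59, 3.80, 6.05 and 10 times in wild type mice. For Csf2rb, Il6st and Il3ra the order was the other way, at 5.99, 5.59 and 2.48 times in Nupr1-/- mice, against 4.30, 4.52 and 1.14 times in wild type mice.

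The genes most like each member over the 8 libraries, out of 10988 others, were found by the Pearson correlation of log2(value + 1), as a description of these libraries. Nearest to Epor were Cad (0.99), an enzyme of pyrimidine synthesis, Atp6v1g2 (0.99), a subunit of the vacuolar proton pump, and Tti1 (0.98), a cofactor of PI3K-like kinases. Nearest to Kit were Sirpa, an inhibitory receptor of myeloid cells, Edem2 and Foxk2 (0.98, 0.96 and 0.95). Flt3 was nearest to Plod2, a collagen-modifying enzyme, Gadd45b, a stress-induced gene, and Pno1 (0.96, 0.96 and 0.95). Csf2ra was nearest to Slc40a1, the iron exporter ferroportin, Helz2 and Mlycd (0.97, 0.96 and 0.96), and Il6st to Rsrc2, Dfna5 and Rhod (0.98, 0.97 and 0.96). Csf3r was nearest to Mios, Zfp946 and Chmp2a (each 0.97 when rounded), Il3ra to Syt11, Rfxank and Ech1 (0.95, 0.94 and 0.94), and Csf2rb to Smim1, 3010003L21Rik and Slc38a9 (0.96, 0.93 and 0.92). None of these nearest genes was itself one of the 8 receptors.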

How the data were processed

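Per the labels' protocols, cDNA was made from polyadenylated RNA by a published method and Nextera XT libraries, which do not mark strand, were sequenced. The build was mm10, per the submitters' processing notes, which name DESeq2, Subread, featureCounts, HISAT2 and bcl2fastq. Their versions and settings are not given in the sources used here. Values in the deposited table are a normalised signal for each gene. By its values this is a read count divided by 1 size factor per library, since 100% of values in each library were whole multiples of 1 step (tolerance 0.001), which gave back whole reads. For wild type library 3 the step is so near 1 that only low values show it. The table has 11855 entries, 1 of them unnamed (at most 0.00109% of a library) and left out, and every gene was above 0 in at least 3 libraries. Depth sets the precision of low genes such as Flt3 and Il3ra. Replicates are separate mice.

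The log2 of each value plus 1 was taken, and 10989 genes reaching 10 in 4 or more libraries were tested, with 865 left out. Groups were compared in limma 3.58.1 (robust eBayes with trend, R 4.3.3), two-sided, with Benjamini-Hochberg adjustment over all genes tested and a threshold of 0.05. The design was limma because the table holds normalised values. The edgeR 4.0.16 and DESeq2 1.42.0 tests on recovered reads were alternatives, as were other added values, filters, scaling, a GC and length trend removed from each library by loess (span 0.5), a replicate block and leaving out each library. Exact permutation tests used 70 assignments of the mean log2 difference. Fits were tested on simulated data. Positions, exon lengths, overlaps and GC content are from GENCODE M21 (mm10), matched for 11716 of 11854 genes, 453 through an older symbol. Replicate numbers did not pair the libraries.

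The members, gene lists and settings were chosen with earlier results of these data known. Named were the 8 members, Nupr1 and Csf2rb2, the called genes of each list (up to 6 of lowest p), for lists with fewer than 2 calls the 2 genes of lowest p, the 3 genes most correlated with each member, and the 2 most abundant genes of each marker list. Markers and companions named beyond this were chosen after their values were seen. A few genes that this rule names are not reported here.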

Additional observations from a re-analysis of the deposited data

How the results depend on the processing

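The count of receptor genes called was 0 under each alternative that kept all 8 libraries, and it ran from 0 to 1 when each library was left out in turn, the 1 being Epor without wild type library 2. Over all genes 418 were called. The count was 775 with DESeq2, 651 with limma-voom, 24 with the GC and length trend removed, 277 with the replicate block and 26 with both the block and the trend removed. It ran from 48 to 883 when libraries were left out, namely 60, 48, 150 and 238 without Nupr1-/- libraries 1 to 4 and 119, 883, 126 and 155 without wild type libraries 1 to 4. With the GC and length trend also removed it was 250 without wild type library 2. Same-numbered libraries deviated from their group means with correlations of -0.06 to 0.02, so the numbers do not pair the libraries, and the block changed no call among the 8 receptors. The sign of small differences changed under some settings, none of them past the threshold. Csf2rb had a log2 difference of 0.063 in edgeR with TMM factors (0.073 with upper quartile factors), 0.064 in DESeq2 and 0.027 in limma-voom, and -0.289 to 0.317 when libraries were left out. Csf2ra was at -0.073 and Il6st at 0.016 with the GC and length trend removed, with and without the block, and Il6st at 0.256 with the trend removed and without wild type library 2, a combination chosen after seeing the data. Leaving out libraries gave -1.637 to 0.394 for Flt3, -0.35 to 0.092 for Csf3r and -0.371 to 0.269 for Il6st. Kit, Il3ra and Epor kept their sign in each fit made. The cause of these changes was not tested. A filter at 50 left Flt3 and Il3ra out, and their low reads limit both.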
